A study of Mus musculus with 8 samples.

Results

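The expression of 32 genes of B-cell development, among 41214 genes counted, was followed by RNA-seq in total bone marrow (BM) of 8 C57Bl6 mice. The genes were taken from a fixed list that runs from pro-B to mature B cells and not by a cutoff on expression. The list was set with earlier results of these data known. They fall into 10 early genes of the pro-B and pre-B stages, 11 genes expressed across B-cell stages and 11 genes of mature B cells, and each symbol matched 1 Ensembl identifier. The mice carried 1 of 2 Gfi1 genotypes. In knockdown (KD) mice a human GFI1 cDNA at the locus is held at a low level by a neo cassette in antisense orientation, as a germline allele not limited to a cell type, and knockout (KO) mice lack Gfi1. There were 2 young KD mice of 39 and 42 days, 2 young KO mice of 48 and 44 days, 2 sick KD mice of 187 and 78 days and 2 old KO mice of 158 and 101 days. The labels give AML for the sick KD mice and no AML for the others, whereas the study describes the spontaneous disease of KD mice as a myeloproliferative disease. No wild-type mice are among these samples, so no group here has a normal level of Gfi1, and the age of the sick mice and their disease cannot be told apart against young KD mice.

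B cells arise in the BM from lymphoid progenitors under the transcription factors Ebf1 and Pax5, with interleukin 7 as the main growth signal in mice. Pro-B and pre-B cells cut and join immunoglobulin genes with the Rag1 and Rag2 recombinase and carry a pre-B-cell receptor made with the surrogate light chain of the Vpreb proteins and Igll1. Immature cells then leave for the spleen, and mature B cells that return to the BM express receptors such as Cr2, Fcer2a and Cxcr5.

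Counts on genes ranged from 26642067 to 42679114 per library, and reads outside annotated genes made up 42.0% and 38.8% of the reads in the sick KD libraries against 26.9% to 33.8% in the other 6. Values are CPM, gene counts scaled to a common library size by the TMM method, and an adjusted p under 0.05 in edgeR was the threshold for a change. Gfi1 itself was at 6.20 and 7.01 CPM in the libraries labelled young KD, at 5.43 and 7.08 in those labelled sick KD, at 14.2 and 14.4 in those labelled young KO and at 13.2 and 29.9 in those labelled old KO. Gfi1 counts were thus higher in the libraries labelled KO, and because the KD allele carries a human cDNA and the counts do not separate the parts of the locus, they do not check the genotypes. In whole BM, fewer B cells and less RNA per B cell cannot be told apart.

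Upstream sequences of the 32 genes were examined as a description only. RefSeq start sites on GRCm38.p6 were found for 27 of the 32 genes, with 35 start sites in all, and the 250 bases before each start were searched on both strands for 4 short motifs. The E-box CAGGTG, bound by E proteins, was found before 13 of the 35 start sites, or 37.1%, against 17.2% of 32851 start sites of all genes. The EBF1 core CCCNNGGG was found before 4 of the 35, or 11.4%, against 11.8% of all. The octamer ATGCAAAT, bound by the factors that Pou2af1 assists, was found before 2 of the 35, or 5.71%, against 1.6% of all. The Gfi1 core AAATCAC was found before 0 of the 35 and before 2.75% of all. A match of letters is a description and shows no binding. Ebf1, Pax5, Rag2, Dntt, Pou2af1, Bach2, Btk, Cd72, Fcmr, Il7r, Lef1 and Siglecg had no match to any of the 4 motifs. The 5 upstream sequences below all hold an E-box and so do not stand for the 35. They are shown for 3 early genes, 1 gene of all stages and 1 mature gene, read 5′ to 3′ toward the start site, with capitals at the motif matches.
Rag1, chr2:101649533-101649782, minus strand, E-box from base -135: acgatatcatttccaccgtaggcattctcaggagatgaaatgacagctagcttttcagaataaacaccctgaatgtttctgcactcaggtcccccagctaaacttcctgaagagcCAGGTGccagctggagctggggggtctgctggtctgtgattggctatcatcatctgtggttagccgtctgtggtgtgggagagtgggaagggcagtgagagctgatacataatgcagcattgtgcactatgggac
Igll1, chr16:16863986-16864235, minus strand, EBF1 core from base -231 and E-box from base -8: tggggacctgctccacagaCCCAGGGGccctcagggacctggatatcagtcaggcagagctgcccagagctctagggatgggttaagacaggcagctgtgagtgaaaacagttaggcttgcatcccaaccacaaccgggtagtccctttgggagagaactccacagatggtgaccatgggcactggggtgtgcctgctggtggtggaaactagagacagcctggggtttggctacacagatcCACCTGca
Vpreb1, chr16:16869256-16869505, minus strand, E-box from base -88: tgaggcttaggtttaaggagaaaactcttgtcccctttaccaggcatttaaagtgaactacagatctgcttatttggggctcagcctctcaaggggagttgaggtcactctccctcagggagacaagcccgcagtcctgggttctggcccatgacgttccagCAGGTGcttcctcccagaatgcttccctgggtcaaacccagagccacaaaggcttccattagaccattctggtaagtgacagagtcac
Cd79a, chr7:24897247-24897496, plus strand, E-box from base -154: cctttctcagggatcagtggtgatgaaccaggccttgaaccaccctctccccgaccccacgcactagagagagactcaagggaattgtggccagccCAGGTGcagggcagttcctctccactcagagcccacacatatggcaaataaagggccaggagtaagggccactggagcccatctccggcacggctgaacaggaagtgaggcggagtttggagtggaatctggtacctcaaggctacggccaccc
Cr2, chr1:195176720-195176969, minus strand, E-box from base -88: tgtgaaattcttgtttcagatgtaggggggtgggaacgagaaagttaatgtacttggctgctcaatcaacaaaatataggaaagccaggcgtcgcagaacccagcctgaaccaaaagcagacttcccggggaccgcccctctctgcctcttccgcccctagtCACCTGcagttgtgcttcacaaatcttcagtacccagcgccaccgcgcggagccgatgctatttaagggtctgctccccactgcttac

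In young mice the 32 genes covered a wide range of levels. Per kilobase of exon, the level in young KD mice was highest for Cd79b, a signalling chain of the B-cell receptor, at 126 CPM per kb, followed by Vpreb3 at 75.7, Spib at 61.3 and Pou2af1 at 54.8 CPM per kb. Cr2, the complement receptor of mature B cells, had the lowest level at 0.398 CPM per kb. The same 4 genes headed the order in young KO mice, with 110 CPM per kb for Cd79b, 57.6 for Vpreb3, 51.0 for Spib and 46.1 for Pou2af1. In sick KD mice the order was headed instead by Bst1 at 29.3 and Btk at 21.6 CPM per kb, which are also expressed in myeloid cells, with Cd79b at 18.8.

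**Figure D1:**
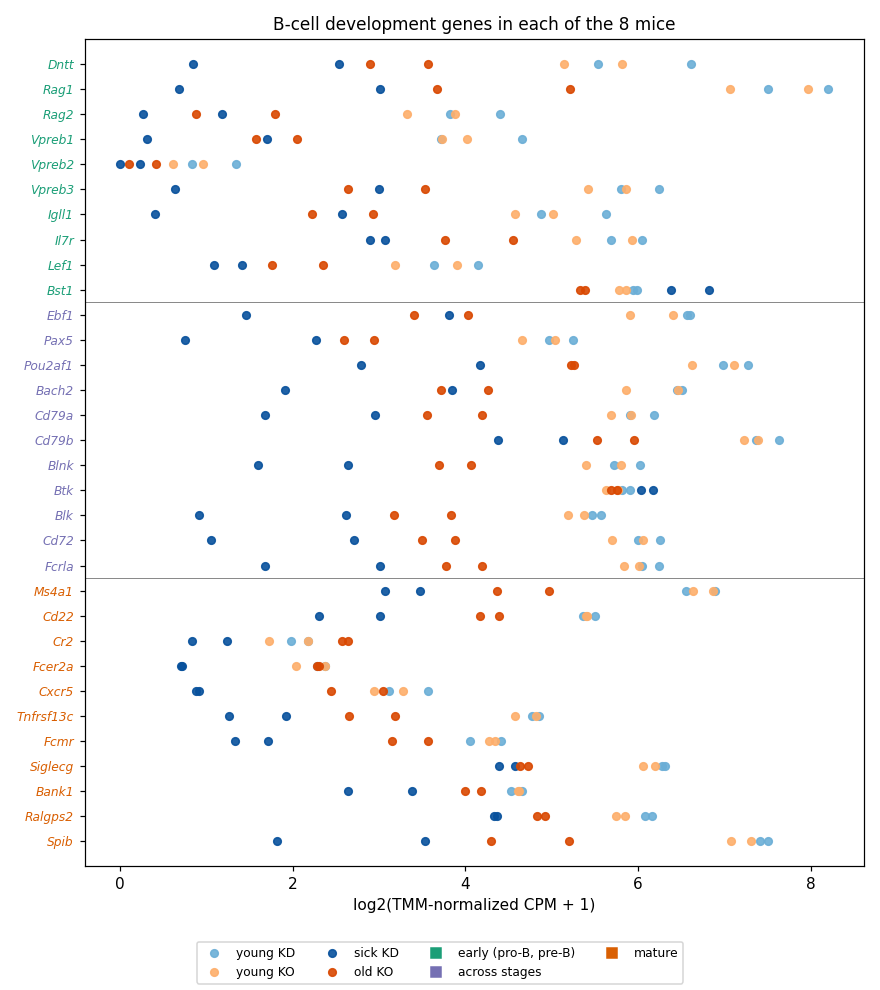
Level of each of the 32 genes in each of the 8 mice, as log2 of CPM plus 1 on the horizontal axis, with 1 row per gene, gene names coloured by stage and points coloured by group. The sick KD points lie to the left of the young KD points for 30 of the 32 genes, and to the right for Bst1 and Btk. Of the 14656 genes tested in this comparison, both sick KD mice were lower in 33.5% and higher in 33.0%.

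Nearly all B-cell development genes fell in sick KD mice. Against young KD mice, 30 of the 32 genes were lower and 1 was higher, where 11.4% of the 14656 genes tested were lower and 9.45% were higher. The median log2 fold change was -3.83 over the early genes, -3.85 over the genes of all stages and -2.92 over the mature genes, and 0.01 over all genes tested. The count of lower genes was 29 or 30 with any of the 4 mice left out.

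The genes of V(D)J recombination fell in sick KD mice. Rag1, the recombinase subunit that cuts DNA, was at 294 and 180 CPM in young KD mice and at 0.599 and 7.05 CPM in the 187-day and the 78-day sick KD mouse. Its log2 fold change was -5.91 ± 0.80 (SE, n = 2 per group, adjusted p = 0.00820), the largest fall of the 32 genes. Rag2, its partner, went from 20.1 and 13.2 to 0.200 and 1.27 CPM, with a log2 fold change of -4.45 ± 0.60 and an adjusted p of 0.00816. Dntt, the terminal transferase that adds bases at V(D)J joints, went from 96.9 and 45.3 to 0.799 and 4.79 CPM, with a log2 fold change of -4.63 ± 0.69 and an adjusted p of 0.0107. No value of a sick mouse overlapped the young KD values for these 3 genes. Both sick KD mice were lower in 33.5% of the 14656 genes tested. Rag1 and Rag2 overlap the gene B230118H07Rik, so that reads there could have been set aside by the counting.

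The surrogate light chain genes fell as well. Vpreb3 was at 75.0 and 55.1 CPM in young KD and at 0.559 and 6.98 CPM in the sick KD pair, a log2 fold change of -4.07 ± 0.77 (adjusted p = 0.0181). Igll1, the lambda 5 chain, was at 48.6 and 28.4 CPM in young KD and at 0.319 and 4.93 CPM in sick KD mice, with -3.83 ± 0.81 (adjusted p = 0.0238). Vpreb1 was at 24.3 and 12.2 CPM in young KD and at 0.240 and 2.25 CPM in sick KD mice, with -3.82 ± 0.75 (adjusted p = 0.0197). Vpreb2 is nearly identical to Vpreb1, and reads that fit both could be lost or shared, so both values are uncertain. Vpreb2 had 0 and 5 counts in the sick KD mice, and its change of -3.59 ± 0.83 (adjusted p = 0.0302) was lost without the 187-day sick KD mouse. The other early genes are less specific to B cells. Il7r, the interleukin 7 receptor of pro-B cells and T cells, went from 65.1 and 50.6 to 6.43 and 7.40 CPM, with a log2 fold change of -3.05 ± 0.17 and an adjusted p of 0.00262. Lef1, a factor of Wnt signalling in pro-B and T cells, went from 16.7 and 11.5 to 1.12 and 1.66 CPM, with -3.32 ± 0.30 and an adjusted p of 0.00412.

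Among the genes of all stages, the transcription factors and receptor chains fell together. Ebf1, which commits progenitors to the B lineage, was at 94.1 and 96.0 CPM in young KD and at 1.76 and 13.1 CPM in the sick KD pair, a log2 fold change of -3.65 ± 0.70 (adjusted p = 0.0188). Pax5, which maintains B-cell identity, was at 37.0 and 30.3 against 0.679 and 3.81 CPM, with -3.87 ± 0.57 (adjusted p = 0.0106). Cd79a, the partner chain of Cd79b in the B-cell receptor, was at 72.0 and 59.2 against 2.20 and 6.76 CPM, with -3.84 ± 0.44 (adjusted p = 0.00568). Cd79b fell by 2.73 ± 0.26 on the log2 scale, from 197 and 164 to 19.8 and 34.0 CPM (adjusted p = 0.00414). It is the smallest fall among the 10 genes of this group that fell, and Cd72, an inhibitory surface receptor, had the largest at -4.35 ± 0.56. Pou2af1 is a coactivator of octamer factors, Bach2 a transcriptional repressor and Blnk an adaptor of the pre-B-cell receptor. Blk is a Src kinase of B cells and Fcrla an Fc receptor-like protein. The log2 fold changes of Pou2af1, Bach2, Blnk, Blk and Fcrla lay between -3.97 and -3.43, all past the threshold.

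Mature genes also fell in sick KD mice, and their falls were unequal. Spib, a factor of B cells that plasmacytoid dendritic cells also use, was at 181 and 170 CPM in young KD and at 2.52 and 10.5 CPM in the sick KD pair, a log2 fold change of -4.72 ± 0.54 (adjusted p = 0.00570). The plasmacytoid dendritic cell list fell with it, with 4 of 4 tested markers lower and its summed level at 5.19 and 2.54 CPM against 27.7 and 22.1 CPM in young KD mice; its part in the Spib value was not tested. Ms4a1, which encodes CD20, was at 117 and 93.3 against 7.39 and 10.1 CPM, with -3.58 ± 0.20 (adjusted p = 0.00262). Tnfrsf13c, the BAFF receptor that keeps mature B cells alive, was at 28.0 and 26.4 against 1.40 and 2.78 CPM, with -3.67 ± 0.29 (adjusted p = 0.00327). Cxcr5, the receptor that draws B cells into follicles, was at 10.9 and 7.67 against 0.878 and 0.846 CPM, with -3.41 ± 0.28 (adjusted p = 0.00332). The smallest falls were those of Cr2 at -1.59 ± 0.34, Bank1 (a scaffold of receptor signalling) at -1.66 ± 0.27, Ralgps2 (an exchange factor for Ral) at -1.81 ± 0.11 and Siglecg (an inhibitory lectin) at -1.85 ± 0.12. Cd22, another inhibitory lectin, Fcer2a, the low-affinity IgE receptor CD23, and Fcmr, the IgM receptor, lay between these, at -2.92, -2.65 and -3.22. The call for Cr2 was lost without the 78-day sick KD mouse.

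**Figure D2:**
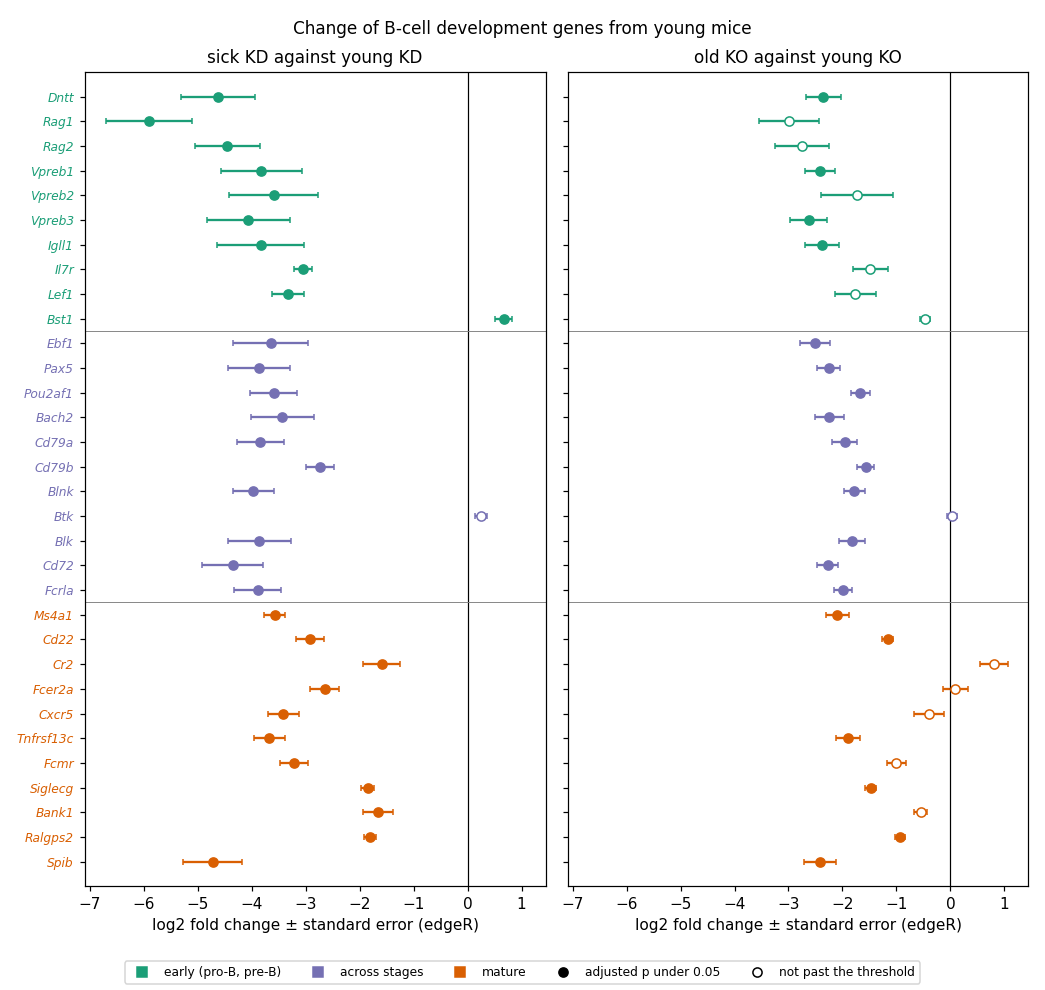
Log2 fold change with its standard error for each gene, sick KD against young KD on the left and old KO against young KO on the right, 2 mice per group, with filled points past the threshold of adjusted p. In the left panel 30 genes lie below 0 and filled, and in the right panel 20 do, with Cr2, Fcer2a and Btk above 0 and open.

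Bst1 and Btk did not follow the other genes. Bst1, a surface enzyme of BM stromal, B-lineage and myeloid cells, was at 62.6 and 60.7 CPM in young KD and at 112 and 82.5 CPM in the sick KD pair, a log2 fold change of 0.67 ± 0.16 (adjusted p = 0.0322). That call was lost without either of the young KD mice. Btk, a kinase of B-cell receptor signalling that myeloid cells also express, was at 59.1 and 55.5 CPM in young KD and at 71.0 and 64.8 CPM in sick KD mice, with 0.25 ± 0.11 (adjusted p = 0.140). Summed levels of 11 neutrophil lineage markers were 9114 and 7314 CPM in the sick KD mice against 4058 to 5382 CPM in the other 6 mice, and those of 5 monocyte markers were 8386 and 7631 against 5233 to 6583 CPM, with none of the markers at 0. Against young KD mice 3 of the 11 neutrophil markers rose and Retnlg fell, and 2 of the 5 monocyte markers rose and Cx3cr1 fell. The part of these cells in the levels of Bst1 and Btk was not tested. Markers of other lineages did not all fall: the summed level of 9 T-cell and NK-cell markers was 81.8 and 75.9 CPM in sick KD mice and 82.9 and 93.3 in young KD mice, with 4 of 9 markers lower and none higher. All 5 erythroid markers were lower, with sums of 143 and 228 CPM against 932 and 352 CPM in young KD mice.

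The 2 sick KD mice differed from each other in the early genes and much less in the mature genes. Rag1 had 15 counts in the 187-day mouse and 200 in the 78-day mouse, and Igll1 had 8 and 140. In CPM the 78-day mouse was higher by 11.8 times for Rag1, 15.4 times for Igll1, 12.5 times for Vpreb3, 9.41 times for Vpreb1, 6.35 times for Rag2 and 6 times for Dntt. Over these 6 genes, grouped after their values were seen, the median ratio was 10.6. Il7r, Lef1 and Bst1 had ratios of 1.15, 1.48 and 0.736. The median ratio was 3.21 over the genes of all stages, with the highest for Ebf1 at 7.44, and 1.15 over the mature genes, of which Spib at 4.19 was the only 1 of 11 above 2. Over 15323 genes with enough counts in these mice the median was 1.01, and 3.65% lay above 2. Age and mouse cannot be told apart here, and no test was made between single mice. The mice of the other groups also differed most in the early genes. The median ratio of the 101-day to the 158-day old KO mouse was 1.80 over the early, 1.34 over the all-stage and 1.17 over the mature genes, and that of the 44-day to the 48-day young KO mouse was 1.55, 1.29 and 0.992. For the 42-day against the 39-day young KD mouse it was 0.634, 0.834 and 0.927.

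**Figure D3:**
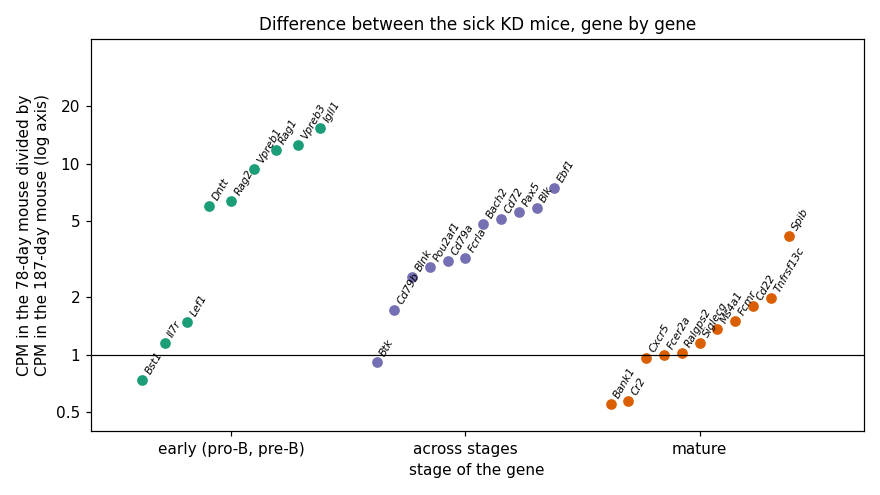
Ratio of CPM in the 78-day to CPM in the 187-day sick KD mouse on a log axis for each gene, by stage, with Vpreb2 left out because it had 0 counts in the 187-day mouse. The 6 early genes from Dntt to Igll1 lie between 6 and 15.4, and the mature genes other than Spib lie below 2.

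Old KO mice also had lower levels than young KO mice, most of all for early and all-stage genes. In this comparison 20 of the 32 genes fell and 0 rose, where 0.606% of the 14847 genes tested fell. The 20 were 4 of 10 early genes, 10 of 11 genes of all stages and 6 of 11 mature genes, and the median log2 fold changes were -2.37, -1.96 and -1.01. Without the 44-day young KO mouse only 3 of the 32 genes passed the threshold, and with all 8 mice in 1 fit 5 passed.

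Vpreb3 was at 41.8 and 57.2 CPM in young KO and at 5.23 and 10.6 CPM in the old KO pair, a log2 fold change of -2.63 ± 0.34 (adjusted p = 0.0396). Igll1 was at 22.8 and 31.2 against 3.65 and 6.63 CPM, with -2.38 ± 0.31 (adjusted p = 0.0396). Dntt and Vpreb1 also passed the threshold, at -2.36 ± 0.33 and -2.42 ± 0.27. Rag1 had the largest log2 fold change of the 32 genes, -2.99 ± 0.56, and missed the threshold (adjusted p = 0.112) with 133 and 250 CPM in young KO and 11.7 and 36.0 CPM in old KO mice. Ebf1 was at 59.0 and 84.1 against 9.63 and 15.3 CPM (log2 fold change -2.51 ± 0.27, adjusted p = 0.0297), and Cd79a was at 50.4 and 59.4 against 10.8 and 17.3 CPM (-1.96 ± 0.23, adjusted p = 0.0313). All values of old KO mice lay below those of young KO mice for the genes named so far in this comparison. That held for 19.5% of the 14847 genes tested.

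The mature genes divided. Ms4a1, at 98.4 and 116 CPM in young KO and 19.6 and 30.2 CPM in old KO mice, fell by 2.10 ± 0.21 on the log2 scale (adjusted p = 0.0293), and Cd22, Tnfrsf13c, Siglecg, Ralgps2 and Spib also fell. Cr2 was at 3.52 and 2.31 CPM in young KO and at 4.95 and 5.22 CPM in the old KO pair, a log2 fold change of 0.80 ± 0.26 (adjusted p = 0.388). Fcer2a was at 4.21 and 3.11 against 3.93 and 3.86 CPM, with 0.09 ± 0.23 (adjusted p = 0.964). Cxcr5 was at 8.73 and 6.67 against 4.46 and 7.25 CPM, with -0.39 ± 0.28 (adjusted p = 0.806). For Fcer2a and Cxcr5 the old and the young KO mice overlapped, whereas both old KO mice lay above both young KO mice for Cr2. Both old KO mice were higher in 17.8% of the 14847 genes tested. Fcmr at -1.01 ± 0.18 and Bank1 at -0.55 ± 0.11 missed the threshold, with both old mice below both young ones. Btk was level, at 53.3 and 48.5 against 53.1 and 50.5 CPM, and its log2 fold change of 0.03 ± 0.09 was not past the threshold.

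The comparison of old KO with sick KD mice, which the study used to set healthy against sick animals of like age, gave calls mostly among the mature genes, which were higher in old KO mice. Of 31 genes tested, with Vpreb2 below the count filter, 13 were higher and 1 was lower, where 9.93% of the 14470 genes tested were higher and 8.22% were lower. The 13 were 9 of 11 mature genes, with 3 of 11 genes of all stages (Pou2af1, Cd79b and Blnk) and 1 of 9 early genes (Il7r). Higher levels in old KO mice were not limited to B-lineage genes. Of other markers, 5 of 9 T-cell and NK-cell, 5 of 5 erythroid and 2 of 4 plasmacytoid dendritic cell genes were higher and 0 lower. Of 10 tested neutrophil markers 1 was higher and 4 were lower, and of 5 monocyte markers 1 was higher and 1 lower. The median log2 fold changes were 1.15 for early, 1.63 for all-stage and 1.72 for mature genes, and without the 78-day sick KD mouse their order reversed, at 3.38, 2.75 and 2.20. The count of higher genes was 9 without the 187-day and 24 without the 78-day sick KD mouse, 20 without the 158-day and 11 without the 101-day old KO mouse, and 28 without the filter on low counts. Il7r, Cd79b, Ralgps2, Bank1 and Tnfrsf13c each lost their call with at least 1 of the 4 mice left out.

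Cxcr5, which is also expressed outside B cells, had the largest difference. It was at 0.878 and 0.846 CPM in sick KD and at 4.46 and 7.25 CPM in old KO mice, with a log2 fold change of 2.75 ± 0.33 (adjusted p = 0.00532). Fcer2a was at 0.639 and 0.634 against 3.93 and 3.86 CPM, with 2.59 ± 0.29 (adjusted p = 0.00496). Fcmr was at 1.52 and 2.29 against 7.87 and 10.8 CPM, with 2.27 ± 0.30 (adjusted p = 0.00627). Each old KO value lay above each sick KD value for these genes and for Cr2, at 1.36 and 0.775 against 4.95 and 5.22 CPM, with a log2 fold change of 2.24 ± 0.33 (adjusted p = 0.00840). Such a separation was found in 34.0% of the 14470 genes tested. With each mouse left out in turn, the log2 fold change ran from 2.35 to 3.06 for Cxcr5 and 2.58 to 2.61 for Fcer2a. It ran from 2.01 to 2.60 for Fcmr, 1.88 to 2.69 for Cr2, 1.37 to 2.20 for Cd22 and 1.15 to 1.78 for Ms4a1. Among the called genes of all stages it ran from 1.40 to 2.75 for Blnk, 1.11 to 2.62 for Pou2af1 and 0.63 to 1.40 for Cd79b. Pou2af1 lost its call under the DESeq2 Wald test. Siglecg, at 19.9 and 22.9 against 23.9 and 25.6 CPM, differed by 0.19 ± 0.14 (adjusted p = 0.368).

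For 4 of the early genes tested (Rag2, Vpreb1, Vpreb3 and Igll1) the old KO mice overlapped the 78-day sick KD mouse. So they did for Vpreb2, which was not tested, at 0.0703 and 0.334 against 0.176 CPM. Among genes of all stages, Ebf1 (9.63 and 15.3 against 13.1 CPM) and Bach2 (12.2 and 18.2 against 13.4 CPM) overlapped too. Igll1 was at 3.65 and 6.63 CPM in old KO mice and at 4.93 CPM in the 78-day sick mouse, and Vpreb3 was at 5.23 and 10.6 against 6.98 CPM. Their log2 fold changes of 0.94 ± 0.90 and 1.05 ± 0.88 did not pass the threshold (adjusted p = 0.491 and 0.432). Rag1, at 11.7 and 36.0 CPM in old KO mice, lay above both sick mice, with 2.61 ± 0.92 (adjusted p = 0.0909). For Igll1 the log2 fold change ran from 0.05 to 3.98 when single mice were left out, and for Rag1 from 1.60 to 5.29. Bst1 went the other way, at 40.9 and 39.3 CPM in old KO mice against 112 and 82.5 CPM, with -1.29 ± 0.16 (adjusted p = 0.00566), alongside the neutrophil and monocyte sums given above.

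**Figure D4:**
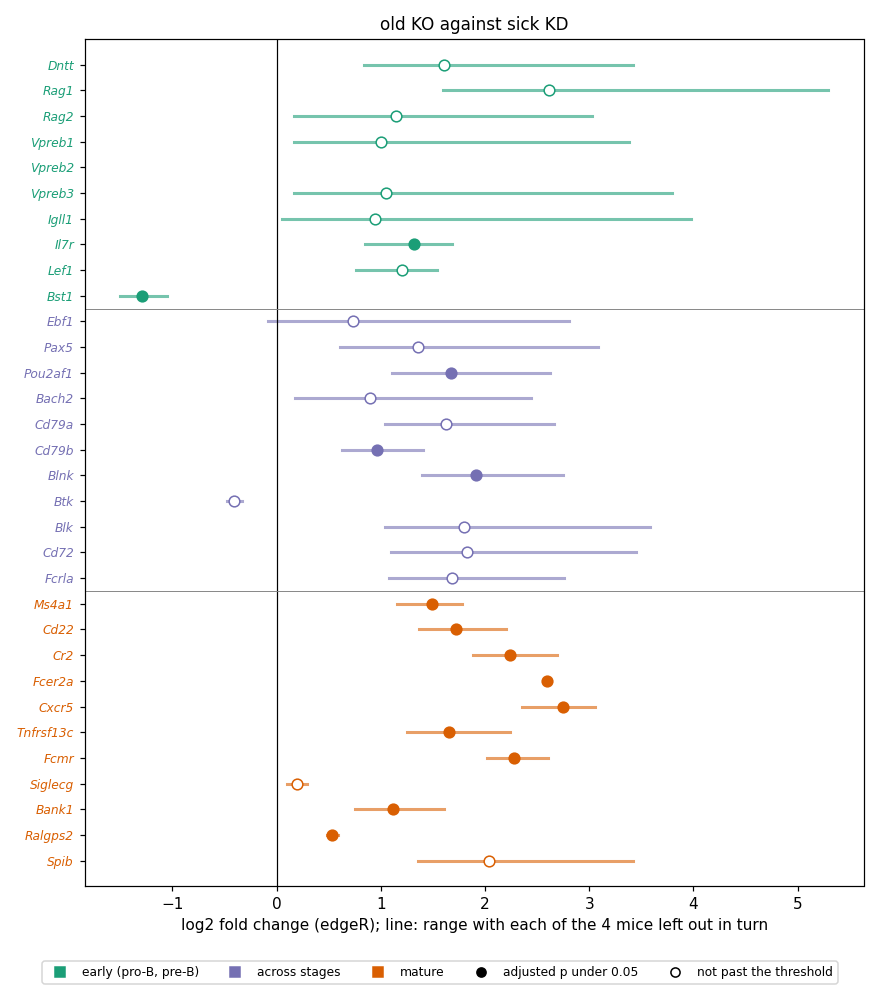
Log2 fold change of each gene in old KO against sick KD mice, with a filled point past the threshold of adjusted p and a line for the range with each of the 4 mice left out in turn. The lines of early genes such as Rag1, from 1.60 to 5.29, are long, and those of Fcer2a and Ralgps2 are short.

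Young KO and young KD mice showed no called difference in these genes. With edgeR 0 of the 32 genes passed the threshold, as did 0 with DESeq2, where 0.0404% of the 14839 genes tested passed. An unadjusted p under 0.05 was found for 3 of the 32 genes and for 394 of the 14839. The log2 fold change was negative for 29 of the 32 genes, with medians of -0.41, -0.26 and -0.15 for early, all-stage and mature genes. In 8 of the 32 genes both KO mice lay below both KD mice, against 11.4% of all genes tested. The 3 genes were Ebf1 at -0.42 ± 0.17, Ralgps2 at -0.34 ± 0.08 and Spib at -0.28 ± 0.10, none of them past the threshold after adjustment (adjusted p = 0.999987). Rag1 overlapped, at 294 and 180 CPM in KD and 133 and 250 CPM in KO mice.

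An interaction contrast in 1 fit of all 8 mice asked whether the gap between KO and KD mice was wider in old KO and sick KD mice than in young mice. This contrast uses the same mice as the comparisons above. It was positive past the threshold for 9 of the 32 genes and negative for 1, where 4.32% of 15102 genes tested were positive and 3.11% negative. The 9 were Blnk and 8 of the 11 mature genes, led by Cxcr5 at 3.02 ± 0.42 (adjusted p = 0.0129) and Fcer2a at 2.74 ± 0.33 (adjusted p = 0.00947). Of other markers, 2 of 9 T-cell and NK-cell, 2 of 5 erythroid and 2 of 5 plasmacytoid dendritic cell genes were positive and 0 negative. Of 11 neutrophil markers 1 was positive and 3 were negative. Among the 32 genes, no early gene other than Bst1 passed, and Rag1 had 2.91 ± 1.07 (adjusted p = 0.126). The count was 25 without the 78-day sick KD mouse, 28 without the filter on low counts, and 1 or 2 without either young KO mouse or without the 39-day young KD mouse.

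The balance of early against mature genes was compared in each mouse. A stricter list of 6 early genes held Rag1, Rag2, Vpreb1, Vpreb2, Vpreb3 and Igll1. Its summed level was 463 and 290 CPM in young KD mice, 219 and 368 in young KO, 1.92 and 22.7 in sick KD and 23.5 and 59.2 in old KO mice. Rag1 alone was at 294 and 180 CPM in young KD mice. The sum of 8 genes of mature B cells (Ms4a1, Cd22, Cr2, Fcer2a, Cxcr5, Tnfrsf13c, Fcmr and Bank1) was 252 and 213 CPM in young KD, 221 and 239 in young KO, 26.6 and 29.7 in sick KD and 78.1 and 102 in old KO mice. The ratio of the early to the mature sum was therefore 1.84 and 1.36 in young KD, 0.990 and 1.54 in young KO, 0.0722 and 0.762 in sick KD and 0.301 and 0.578 in old KO mice. By this ratio all 4 young mice were above all 4 sick or old mice, whereas differences of log2 values, given below, overlapped. Between sick KD and old KO the ratios overlapped, with the 187-day sick KD mouse lowest and the 78-day sick KD mouse highest of these 4. The mean difference of log2 values over all early and mature genes was 0.18 ± 0.33 in young KD and -0.08 ± 0.38 in young KO mice. It was -0.43 ± 0.60 in sick KD and -0.92 ± 0.25 in old KO mice (mean ± SD, n = 2), and Bst1 raises the early value in sick KD mice. The 78-day sick KD mouse was at -0.0051, above the 42-day young KD mouse at -0.059 and the 48-day young KO mouse at -0.35. With the stricter lists the 78-day sick KD mouse was at 0.0507, above the 48-day young KO mouse at -0.0499.

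**Figure D5:**
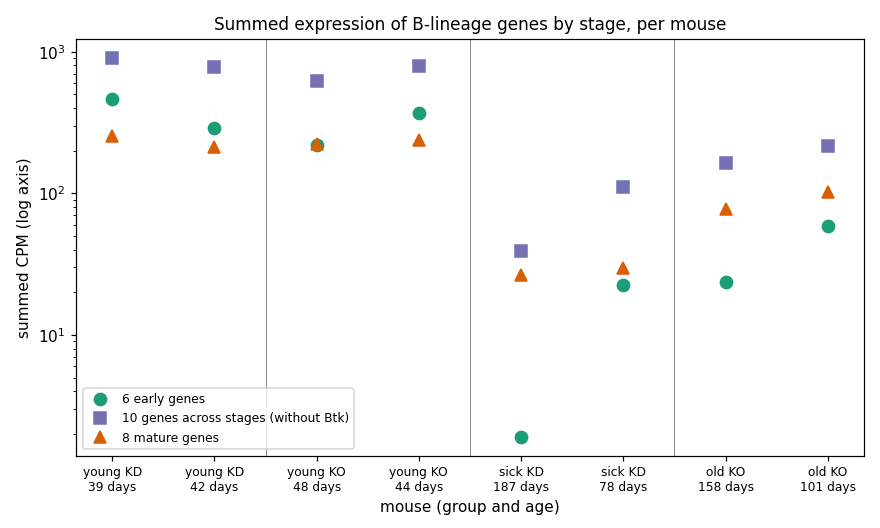
Summed CPM on a log axis for 6 early genes, 10 genes expressed across stages without Btk and 8 mature genes in each mouse, with its group and age. The early sum is above or level with the mature sum in young mice and below it in all sick KD and old KO mice, with 1.92 CPM in the 187-day sick KD mouse.

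Other genes of the lineage were read from fixed lists. Of 9 other B-lineage surface molecules, 6 fell and 0 rose in sick KD against young KD mice, among them Ly6d, a surface marker of early B-lineage cells, at 52.9 and 43.4 CPM in young KD and 4.19 and 6.02 CPM in sick KD mice (log2 fold change -3.22 ± 0.21, adjusted p = 0.00262). Of 12 other transcription factors of B-cell development, 6 fell and 0 rose, with Irf4 at 134 and 119 against 14.0 and 21.7 CPM (-2.82 ± 0.21, adjusted p = 0.00327). Of 15 signalling genes downstream of the receptor, many of which other blood cells use, 5 fell and 0 rose, with a median of -0.16. In old KO against young KO mice 3, 1 and 0 genes of these lists fell and 0 rose. Of 6 tested marrow factors that support B cells, 4 fell in sick KD mice, among them Cxcl12, the chemokine that holds B-cell progenitors in the BM, at 54.0 and 51.7 CPM in young KD and 14.0 and 9.30 CPM in sick KD mice (-2.17 ± 0.20, adjusted p = 0.00414). In old KO mice Cxcl12 was at 91.3 and 55.1 CPM, higher than in sick KD mice by 2.64 ± 0.29 on the log2 scale (adjusted p = 0.00496).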

How the data were processed

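Raw counts per gene were deposited for each of 8 mice. Per the labels and the study's methods, the authors prepared stranded poly(A) libraries from BM RNA, aligned reads to mm10 with TopHat2 2.0.10, processed them with SAMtools and obtained the count per Ensembl gene with HTSeq, without normalization; the strand setting is not given in the sources used here. Tallies of unassigned reads were left out of library sizes. Symbols came from GENCODE M21 (GRCm38), which named 40340 of 41214 identifiers. Counts were tested with the quasi-likelihood test of edgeR 4.0.16 in R 4.3.3 after TMM scaling and filterByExpr, on the 4 mice of each comparison and on all 8 for the interaction, with Benjamini-Hochberg adjustment over all genes tested. The study used DESeq, and DESeq2 1.42.0 was an alternative here. Standard errors were derived from the F statistic of each gene and its fold change. The scripts were tested on simulated data. At 26642067 to 42679114 counts per library, genes with few counts are imprecise, and 2 mice per group limit precision more.

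All 32 genes were named by rule, and of each other list up to 2 genes that changed most either way could be named, of which 1 is not reported here. The members, lists and stages were chosen with earlier results of these data known. Upstream sequences are from RefSeq, and proteins were not analysed here. Of 7 marrow factors, 1 did not match an identifier. Alternatives were DESeq2 size factors, upper quartile scaling, the DESeq2 Wald test, no filter, 1 fit of all mice, removal of trends in GC content and length, a pseudocount of 5 in place of 1, stricter stage lists, and each mouse left out. The labels give neither sex nor preparation batch. Mice are numbered individually and were not paired.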

Additional observations from a re-analysis of the deposited data

Results flagged for a closer look

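For 10 of the 32 genes the KO-to-KD gap in the old KO and sick KD pairs differed from that in young mice. The test was the interaction test of edgeR in all 8 mice, and 1122 of the 15102 genes tested, or 7.43%, differed in either direction. On the log2 scale the change was 3.02 for Cxcr5, 2.74 for Fcer2a, 2.39 for Cr2, 2.21 for Fcmr, 2.18 for Blnk, 1.77 for Tnfrsf13c, 1.75 for Cd22, 1.47 for Ms4a1 and 0.87 for Ralgps2, and -1.14 for Bst1. The standard errors ran from 0.128 for Ralgps2 to 0.470 for Blnk, and the adjusted p from 0.00947 for Fcer2a to 0.0410 for Tnfrsf13c. The calls depended on which mice were in the fit, as given for the interaction above. With single mice left out, the change ran from 2.54 to 2.97 for Fcer2a, from 1.68 to 3.02 for Blnk and from -1.36 to -0.90 for Bst1.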

How the results depend on the processing

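The count of genes that fell in sick KD against young KD mice was 30 under each alternative that kept all 4 mice, and removing the trends in GC content and length moved the mature median to -2.76. Without the filter on low counts, 1 gene (Dntt) was lower in young KO than in young KD mice, 28 were higher in old KO than in sick KD mice, and 28 were positive in the interaction. The lower count in old KO against sick KD mice was 2, with Btk added, under the DESeq2 Wald test, without the filter, with all 8 mice in 1 fit and with trends removed, and with trends removed the log2 fold change of Siglecg was -0.0085. In old KO against young KO mice 5 genes fell with all 8 mice in 1 fit. The early minus mature difference was 0.56 in young KD and 0.24 in young KO mice with the stricter lists, 0.68 in sick KD and -0.65 in old KO mice as a log2 ratio of summed CPM, and -0.54 in old KO mice with a pseudocount of 5. The sign was thus opposite to that of the main value in young KO mice (-0.08) and in sick KD mice (-0.43). In the sick KD mice the early sums were 122 and 119 CPM with Bst1 and 10.3 and 36.5 CPM without it. Their mature sums were 68.1 and 82.8 CPM. The cause of the other shifts was not tested. Depth limits Vpreb2, Rag2, Vpreb1 and Igll1 most, with 0, 5, 6 and 8 counts in the 187-day sick KD mouse. No paired analysis was possible because each library came from a different mouse and the mice were not paired between groups.

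With single mice left out, a fit with 1 mouse in an arm takes that mouse to vary like the others, and log2 values and counts ran over these ranges. In young KO against young KD mice, these were Il7r -0.63 to 0.056, Rag1 -0.86 to 0.076, Tnfrsf13c -0.27 to 0.0057, the early median -0.80 to -0.078, the all-stage median -0.47 to -0.12, Fcer2a -0.38 to 0.038, Ms4a1 -0.13 to 0.19, Cr2 -0.48 to 0.10, the mature median -0.15 to -0.087, Cd22 -0.098 to 0.031, Vpreb1 -0.83 to 0.16, Bank1 -0.048 to 0.078 and Fcmr -0.11 to 0.25. In old KO against sick KD mice, these were the early median 0.39 to 3.38, the mature median 1.37 to 2.20, Ebf1 -0.078 to 2.81, the count of higher genes 9 to 24, the count of lower genes 1 to 2 and the all-stage median 1.04 to 2.75. In sick KD against young KD mice, these were the early median -6.40 to -3.04, the all-stage median -4.98 to -3.11, the mature median -3.38 to -2.65 and the count of higher genes 0 to 1. In old KO against young KO mice, these were the all-stage median -2.24 to -1.69, Btk -0.027 to 0.081, the early median -2.83 to -2.04, the mature median -1.25 to -0.90, the count of lower genes 3 to 23 and Fcer2a -0.094 to 0.31. For the interaction, these were the early median 0.96 to 3.94, the all-stage median 1.28 to 2.98, the mature median 1.59 to 2.23, the count of higher genes 1 to 25 and the count of lower genes 0 to 1. The early minus mature difference ran from -0.059 to 0.41 in young KD, from -0.35 to 0.19 in young KO and from -0.86 to -0.0051 in sick KD mice.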

Other observations

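Of 6 plasma cell markers, 4 were higher in old KO than in sick KD mice and 0 lower, and in sick KD against young KD mice Xbp1 rose and Mzb1 fell. Mzb1, a chaperone of antibody secretion, was at 21.7 and 18.4 CPM in young KD and at 3.39 and 3.63 CPM in the sick KD pair, and its log2 fold change was -2.50 ± 0.17 (adjusted p = 0.00262, edgeR). Jchain, which joins secreted IgM and IgA, was at 532 and 261 CPM in old KO mice, 107 and 104 CPM in sick KD mice and 83.8 and 103 CPM in young KO mice. It was higher in old KO than in sick KD mice by 1.90 ± 0.31 on the log2 scale (adjusted p = 0.0115, edgeR), and against young KO mice the difference of 2.09 ± 0.34 missed the threshold (adjusted p = 0.0765). Sdc1, the surface proteoglycan of plasma cells, was at 32.8 and 24.7 CPM in old KO and at 5.95 and 10.4 CPM in sick KD mice, a difference of 1.80 ± 0.29 (adjusted p = 0.0103). The 3 megakaryocyte markers had no call in either direction in the same comparison.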
